A study of Mus musculus with 12 samples.

Results

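Regulatory T cells (Tregs) restrain other immune cells through a small set of secreted and surface molecules, and some of the same cells release factors that help tissue heal. Here 9 genes for such mediators were followed: Il10, Areg, Fgl2, Ebi3, Tgfb1, Lrrc32, Itgb8, Entpd1 and Nt5e. They were chosen by symbol, with earlier results of these data known, and 9 of 9 were found among the 23361 genes of the deposited table. Libraries of RNA labelled as cytoplasmic came from 4 groups of mouse Tregs, with 3 libraries each. Lag3-deficient Tregs and wild-type (Wt) Tregs were taken from pancreatic islets, and Lag3-deficient and Wt Tregs were also taken from non-draining lymph nodes (NDL), all in a model of autoimmune diabetes. Lag3 is an inhibitory receptor that binds MHC class II, and the series title places its action on Treg proliferation and function. The strain, the age, how Lag3 was removed, the sorting markers and the number of animals behind a library are not stated in the labels used here. Since no label ties the libraries to separate animals, each p-value measures the spread between these libraries, which may be technical.

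The mediators work in different ways. IL-10 (from Il10) is a secreted cytokine that quiets antigen-presenting cells and other T cells, and fibrinogen-like protein 2 (Fgl2), when secreted, acts on antigen-presenting cells through inhibitory Fc receptors. Ebi3 encodes a chain that pairs with the product of Il12a to form IL-35 and with that of Il27 to form IL-27. TGF-beta 1 (Tgfb1) is stored in a latent form that Treg cells hold on their surface with GARP (from Lrrc32), and the integrin subunit beta 8 (Itgb8), together with alpha V, releases it. CD39 (from Entpd1) and CD73 (from Nt5e) are ectoenzymes that turn extracellular ATP stepwise into adenosine, which dampens T cells. Amphiregulin (Areg), a ligand of the EGF receptor, is the repair factor of the set, and Tregs of injured or inflamed tissue are known to make it.

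The 12 libraries were deposited with totals of 15232498 to 15370098 rescaled counts, which hides the sequencing depth, and no counting interval is given. The headers number the columns of each group 1, 2 and 1 again, and these are called 1a, 2 and 1b here, the order in which the 3 values of a group are always given. Rn45s, a ribosomal RNA gene, took 1.26 to 1.68% of the signal in the 4 columns called 1b and 0.149 to 0.571% elsewhere. Levels are given in CPM, the counts of a gene scaled to a common library total with TMM factors, where 1 CPM stands for 13.3 to 20.9 rescaled counts depending on the library. The targeted gene Lag3 (chromosome 6, 124904361 to 124911705, GRCm38) had 0.0754, 0 and 0 CPM in Lag3-deficient islet libraries, against 2.76, 3.52 and 8.14 CPM in Wt islet libraries. In NDL it had 0.0479, 0 and 0.225 CPM in Lag3-deficient libraries, against 0.123, 0.303 and 0.435 CPM in Wt libraries. In islets all Lag3-deficient libraries were below all Wt libraries, and the log2 fold change of -2.39 ± 0.62 (SE) did not pass after adjustment over all genes (limma, adjusted p = 0.85). The Treg factor Foxp3 lay between 224 and 654 CPM and Cd4 between 115 and 294 CPM in all 12 libraries. Of 8 listed Treg genes, 4 had higher fitted levels in islets than in NDL, averaged over genotypes. Foxp3 (log2 fold change -0.51 ± 0.28, adjusted p = 0.518) and Il2ra (-0.82 ± 0.31, adjusted p = 0.291) were among the lower ones. Ikzf4 was at 5.08 to 8.73 CPM in Wt islets, against 21.3 to 80.8 CPM in Wt NDL.

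Of the 10868 genes tested, 9 of 9 members passed the filter (3 or more libraries with 10 or more rescaled counts). Il10 and Areg reached 10 rescaled counts in 6 of 6 islet libraries each, and in 1 and 2 of 6 NDL libraries, so they passed the filter through the islet libraries alone. Pooling both genotypes, the adjusted p of limma was under 0.05 for 3 of 9 members between islets and NDL. All 3, Il10, Areg and Fgl2, were higher in islets. Over all genes tested, 0.819% were called higher and 0.101% called lower in this comparison. The median log2 fold change of the 9 members was 1.13, beside -0.04 over all genes tested. Because the members were chosen with earlier results of these data known, these contrasts with all genes are descriptions and no independent support. For Il10 and Areg the filter adds to this, since they passed it through the islet libraries alone.

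**Figure D1:**
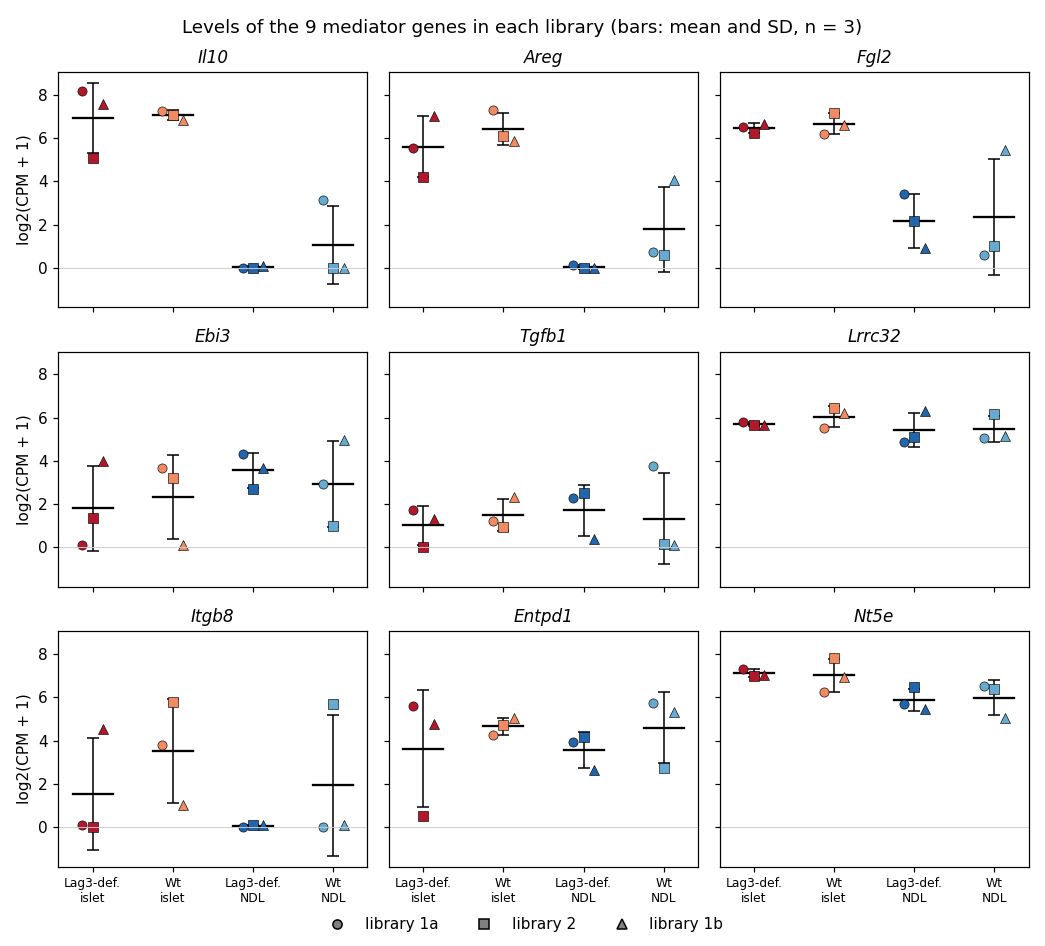
Level of each of the 9 mediator genes on the scale log2(CPM + 1) in every library, by group, with symbols for libraries and bars for the mean and SD of 3 libraries. Il10, Areg and Fgl2 stand higher in all 6 islet libraries than in any NDL library, Lrrc32 and Nt5e are present in all 12, and Itgb8 is at or under 1.02 CPM in 1 or more libraries of each group.

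Among the secreted mediators, Il10 (chromosome 1, 131019845 to 131024974, plus strand) differed most between the tissues. It was at 284, 33.1 and 189 CPM in Lag3-deficient islet libraries and at 152, 135 and 114 CPM in Wt islet libraries. In NDL it was listed at 0, 0 and 0.0748 CPM in Lag3-deficient libraries and at 7.80, 0 and 0 CPM in Wt libraries. Il10 RNA was therefore found in each islet library and, above a trace, in 1 of 6 NDL libraries, Wt NDL 1a. The lowest islet library, Lag3-deficient islet 2, still exceeded the highest NDL library. The log2 fold change of islets over NDL, averaged over genotypes, was 6.46 ± 0.88 (SE; adjusted p = 0.00048). The size of this fold change depends on how values near 0 are treated, being 4.78 with a pseudocount of 4 CPM and 10.31 with voom weights. Within Lag3-deficient cells the difference was 6.90 ± 1.25 (adjusted p = 0.0245), where 0.12% of all genes were called. This call did not hold without a filter on low values (adjusted p = 0.0672), without the columns called 1b (0.122), or when any 1 of 6 libraries was left out. Those were Lag3-deficient islet 1a (adjusted p = 0.152), Lag3-deficient islet 1b (0.0673), Wt islet 1a (0.0624), Wt islet 2 (0.0604), Lag3-deficient NDL 1a (0.0889) and Lag3-deficient NDL 2 (0.0745). Within Wt cells it was 6.02 ± 1.25 and stood just outside the threshold (adjusted p = 0.0569), where 0.184% of all genes were called. The Wt value was under the threshold without Wt NDL 1a (0.0451), Lag3-deficient islet 2 (0.0411) or Lag3-deficient NDL 1b (0.0411), and also with RLE size factors (0.0389), a pseudocount of 4 (0.0471), voom weights (0.0288) or the second table (0.0239).

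Areg, the repair factor (chromosome 5, 91139599 to 91148432, plus strand), showed the same order of tissues. Lag3-deficient islet libraries held 45.7, 17.5 and 130 CPM, and Wt islet libraries held 155, 66.3 and 58.1 CPM. Lag3-deficient NDL libraries were listed at 0.0959, 0 and 0 CPM, and Wt NDL libraries held 0.676, 0.485 and 15.6 CPM. All islet libraries were above all NDL libraries, although Wt NDL 1b came close to Lag3-deficient islet 2. The averaged log2 fold change of islets over NDL was 5.09 ± 0.93 (adjusted p = 0.00855), and it was 7.64 with voom weights. Within each genotype Areg was not called by limma, and with voom weights it was called in Lag3-deficient cells (9.71, adjusted p = 0.0106). The log2 fold change was 5.55 ± 1.31 in Lag3-deficient cells (adjusted p = 0.122) and 4.62 ± 1.31 in Wt cells (adjusted p = 0.239).

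Fgl2 (chromosome 5, 21372642 to 21378374, plus strand) was even across the islet libraries. It stood at 90.4, 73.6 and 98.6 CPM in Lag3-deficient islet libraries and at 71.9, 144 and 96.9 CPM in Wt islet libraries. NDL libraries held 9.64, 3.53 and 0.898 CPM in Lag3-deficient and 0.491, 1.03 and 42.5 CPM in Wt cells. On the log2 scale they varied more, with SDs of 1.24 in Lag3-deficient and 2.69 in Wt NDL against 0.21 and 0.5 in islets. In CPM the SDs were larger in islets, 12.8 and 36.5 against 4.48 and 24.1 in NDL. The islet and NDL libraries did not overlap, and Wt NDL 1b was again the highest NDL library. The averaged log2 fold change was 4.30 ± 0.85 (adjusted p = 0.0151), and it lost its call without Wt islet 2 (4.18, adjusted p = 0.0551) and without a filter on low values (adjusted p = 0.0662). Within the genotypes the values were 4.29 ± 1.21 in Lag3-deficient cells (adjusted p = 0.231) and 4.31 ± 1.21 in Wt cells (adjusted p = 0.229). Il10, Areg and Fgl2 were thus the 3 members for which all 6 islet libraries lay above all 6 NDL libraries. This order was found for 1.32% of all genes tested. Il10 and Areg passed the filter through the islet libraries alone, so for them this order and the tissue p-values are descriptions.

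Since the columns called 1b differ in ribosomal RNA, the tissue differences were also read within and outside them. Among the 1b columns, with 1 library a group and no test, the averaged difference was 7.15 log2 units for Il10, 4.43 for Areg and 3.44 for Fgl2. The genotypes were unlike there for Areg and Fgl2. In these columns Areg differed between the tissues by 7.03 in Lag3-deficient and 1.83 in Wt cells, Fgl2 by 5.71 in Lag3-deficient and 1.17 in Wt cells, and Il10 by 7.47 in Lag3-deficient and 6.84 in Wt cells. Among the other 8 libraries the fitted values were 6.16 for Il10 (adjusted p = 0.03), 5.46 for Areg (adjusted p = 0.0358) and 4.73 for Fgl2 (adjusted p = 0.0348).

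Near the transcription starts of the members, RefSeq promoter windows (GRCm38.p6, 250 bases before to 50 bases after the start) were given for 7 of 9 members, with 8 windows in all. They were searched on both strands for 4 short motifs of factors known from activated T cells. These were AP-1 (TGANTCA), the cAMP response element (TGACGTCA), a STAT site (TTCNNNGAA) and a forkhead site (TGTTTAC). The windows of Areg and Fgl2 are shown because these genes were called higher in islets and had windows, with motif matches in capitals.
Areg, chr5:91139349-91139648, plus strand: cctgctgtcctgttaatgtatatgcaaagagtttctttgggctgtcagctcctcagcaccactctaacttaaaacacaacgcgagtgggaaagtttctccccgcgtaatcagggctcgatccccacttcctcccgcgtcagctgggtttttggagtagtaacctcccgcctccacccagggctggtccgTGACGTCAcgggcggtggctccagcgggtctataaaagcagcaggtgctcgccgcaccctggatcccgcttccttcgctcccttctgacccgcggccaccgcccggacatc
Fgl2, chr5:21372423-21372722, plus strand: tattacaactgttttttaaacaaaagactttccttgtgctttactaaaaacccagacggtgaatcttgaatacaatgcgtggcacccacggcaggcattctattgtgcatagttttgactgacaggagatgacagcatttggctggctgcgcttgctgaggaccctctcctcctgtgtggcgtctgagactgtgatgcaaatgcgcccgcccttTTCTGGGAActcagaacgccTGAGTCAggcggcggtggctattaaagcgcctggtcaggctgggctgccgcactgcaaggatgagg
The Areg window held 1 cAMP response element, beginning 61 bases before the start. The Fgl2 window held 1 STAT site beginning 36 bases before the start and 1 AP-1 site beginning 16 bases before it. Of all 32851 windows, 1.79% held the cAMP response element, 8.30% a STAT site, 7.81% an AP-1 site and 3.65% a forkhead site. A match is a string of letters, not a shown binding site, and the other 6 windows of members held none of these strings.

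Ebi3 (chromosome 17, 55952640 to 55957022, plus strand) did not follow Il10, Areg and Fgl2. Lag3-deficient islet libraries held 0.0754, 1.54 and 14.8 CPM and Wt islet libraries 11.7, 8.14 and 0.0678 CPM. Lag3-deficient NDL libraries held 18.7, 5.55 and 11.9 CPM and Wt NDL libraries 6.57, 0.969 and 30.0 CPM. The ranges overlapped in every pairing of neighbouring groups, and the averaged log2 fold change of islets over NDL was -1.19 ± 1.04 (adjusted p = 0.718). Of the exon bases of Ebi3, 23.4% are shared with the antisense gene Gm16712, so reads of this pair of genes cannot be told apart if strand was not used in counting. Il12a, the partner chain for IL-35, was at 0 in 9 of 12 libraries and at most 1.10 CPM, and Il27 was at 0 in 9 of 12 libraries and at most 0.165 CPM. Both fell under the filter.

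Of the TGF-beta genes, Lrrc32 RNA was found in all 12 libraries and Tgfb1 RNA was low. Lrrc32, for GARP (chromosome 7, 98489283 to 98502181, plus strand), stood at 55.5, 49.0 and 49.6 CPM in Lag3-deficient islet libraries and at 44.9, 86.0 and 72.3 CPM in Wt islet libraries. In NDL it was at 28.2, 34.0 and 79.2 CPM in Lag3-deficient and 32.2, 70.2 and 34.9 CPM in Wt libraries. All 4 groups overlapped, and the averaged log2 fold change of islets over NDL was 0.43 ± 0.48, with a 95% confidence interval of -0.58 to 1.44 (adjusted p = 0.787). Tgfb1 itself (chromosome 7, 25687002 to 25705077, plus strand) was at 2.34, 0 and 1.53 CPM in Lag3-deficient and at 1.31, 0.954 and 4.07 CPM in Wt islet libraries. In NDL it was at 3.88, 4.67 and 0.299 CPM in Lag3-deficient and at 12.5, 0.121 and 0.0724 CPM in Wt libraries. Its groups overlapped as well (averaged log2 fold change -0.27 ± 0.75, adjusted p = 0.934). Levels this low rest on at most 203 rescaled counts in any library.

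Itgb8 (chromosome 12, 119158022 to 119238802, minus strand) was present in some libraries and nearly absent from others of the same group. Lag3-deficient islet libraries held 0.0754, 0 and 22.3 CPM and Wt islet libraries 12.8, 54.6 and 1.02 CPM. Lag3-deficient NDL libraries were at 0, 0.0631 and 0.0748 CPM, and Wt NDL libraries at 0, 51.4 and 0.0724 CPM. In NDL the gene was thus found above a trace in 1 of 6 libraries, Wt NDL 2, at a level close to the highest islet library. The averaged log2 fold change of islets over NDL was 1.54 ± 1.11 (adjusted p = 0.643).

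The pair of adenosine enzymes differed in how evenly they were detected. Nt5e, for CD73 (chromosome 9, 88327197 to 88372092, plus strand), held 160, 127 and 131 CPM in Lag3-deficient islet libraries and 75.9, 226 and 122 CPM in Wt islet libraries. NDL libraries held 51.3, 87.4 and 43.4 CPM in Lag3-deficient and 92.2, 81.8 and 32.3 CPM in Wt cells. All 3 Lag3-deficient islet libraries exceeded all 3 Lag3-deficient NDL libraries, as was true of 5.44% of all genes, whereas the Wt libraries of the tissues overlapped (8.37% of all genes did not, with islets higher). The averaged log2 fold change of islets over NDL was 1.13 ± 0.42 (unadjusted p = 0.0147), short of the threshold after adjustment (adjusted p = 0.284), where 11.3% of genes had an unadjusted p under 0.05. Entpd1, for CD39 (chromosome 19, 40612366 to 40741602, plus strand), held 47.5, 0.441 and 26.4 CPM in Lag3-deficient islet libraries and 18.2, 25.1 and 31.7 CPM in Wt islet libraries. NDL libraries held 14.3, 17.2 and 5.16 CPM in Lag3-deficient and 52.4, 5.63 and 39.5 CPM in Wt cells. The tissues overlapped throughout, and the averaged log2 fold change was 0.06 ± 0.93, with a 95% confidence interval of -1.88 to 2.00 (adjusted p = 0.99).

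**Figure D2:**
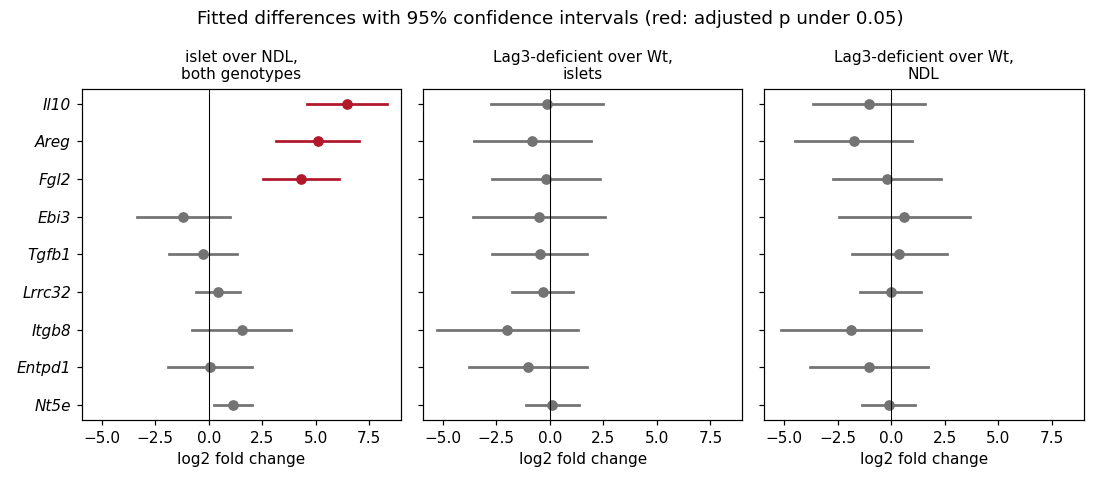
Fitted log2 fold changes of the 9 mediator genes with 95% confidence intervals, for islets over NDL averaged over genotypes and for Lag3-deficient over Wt cells in each tissue. Il10, Areg and Fgl2 lie above 0 and in red (adjusted p under 0.05) between tissues, and all intervals between genotypes include 0.

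Whether loss of Lag3 altered these mediators was asked in each tissue. In islets 0 of 9 members passed with limma, 0 had an unadjusted p under 0.05 and 0 passed with voom weights, where 0% of all genes passed and 5.74% had an unadjusted p under 0.05. Their median log2 fold change of Lag3-deficient over Wt was -0.48, beside -0.22 over all genes, and adjusted p-values ran from 0.955 to 0.998. The estimate was closest to 0 for Nt5e (0.11 ± 0.60, 95% confidence interval -1.13 to 1.36), Il10 (-0.12 ± 1.25, -2.74 to 2.49) and Fgl2 (-0.20 ± 1.21, -2.72 to 2.32). RLE size factors turned the sign for Il10 (0.11) and Fgl2 (0.03), and moved the median of all genes to -0.03. Lag3-deficient islet 2 had the most tested genes at 0, 927 against 399 to 789 in the other libraries. Without it the estimate was 0.80 ± 1.35 for Il10, -0.13 ± 1.44 for Areg and -0.09 ± 1.39 for Fgl2, none of them called. Areg differed by -0.82 ± 1.31 (-3.56 to 1.93). Entpd1 differed by -1.03 ± 1.31, and by 0.52 ± 1.15 without Lag3-deficient islet 2, so its direction rested on that library. It was -2.02 without Lag3-deficient islet 1a and -1.61 without Lag3-deficient islet 1b. Itgb8 differed by -1.98 ± 1.56, a value that single libraries moved widely. It was -3.49 without Lag3-deficient islet 1b (unadjusted p = 0.0375, adjusted p = 0.506), -3.20 without Wt islet 1b, -1.27 and -1.21 without Lag3-deficient islets 1a and 2, and -0.86 without Wt islet 2. Within the 1b columns Itgb8 differed by 3.53, with no test, and among the other libraries by -4.73 (unadjusted p = 0.0158, adjusted p = 0.397). The genotypes overlapped for each member. Among the 1b columns Areg differed by 1.15, with 1 library a group and no test, and among the other libraries by -1.67 (adjusted p = 0.707). Intervals this wide leave room for several-fold differences in either direction for Il10, Areg and Fgl2.

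In NDL 0 of 9 members passed with limma, 0 had an unadjusted p under 0.05 and 0 passed with voom weights, where 0% of all genes passed and 2.72% had an unadjusted p under 0.05. The median of the members was -0.17, beside -0.02 over all genes. Areg was the 1 member whose libraries did not overlap, with all Lag3-deficient NDL libraries below all Wt NDL libraries, an order found for 3.63% of all genes. Its log2 fold change was -1.75 ± 1.31 (unadjusted p = 0.199, adjusted p = 1), and the Wt level rested largely on 1b. Among the 1b columns alone Areg differed by -4.06 and Fgl2 by -4.52, with no test, and among the other libraries by -0.60 for Areg and 2.06 for Fgl2 (adjusted p = 1 for each). Il10 differed by -1.01 ± 1.25 and Itgb8 by -1.87 ± 1.56, in both cases with 1 Wt library above a trace. Nt5e differed by -0.11 ± 0.60 (-1.36 to 1.14) and Lrrc32 by -0.02 ± 0.68 (-1.44 to 1.41).

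Whether the genotype effect differed between the tissues was tested as a difference of differences, islets minus NDL. Of the 9 members, 0 passed with limma (adjusted p = 1 for each), 0 had an unadjusted p under 0.05 and 0 passed with voom weights, where 0% of all genes passed and 4.02% had an unadjusted p under 0.05. The estimate was 0.89 ± 1.77 for Il10, 0.93 ± 1.86 for Areg and -0.03 ± 1.70 for Fgl2. For Nt5e it was 0.22 ± 0.84, with a 95% confidence interval of -1.54 to 1.99.

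RNA of other cells also stood higher in some islet libraries. The summed level of 16 exocrine pancreas markers was 34.1 to 630 CPM in Lag3-deficient and 183 to 3330 CPM in Wt islet libraries, against at most 4.91 CPM in any NDL library. The sum of 12 endocrine markers was 3.14 to 38.4 CPM in Lag3-deficient and 10.3 to 235 CPM in Wt islet libraries, against at most 0.788 CPM in NDL. Myeloid cells are known sources of Il10, Areg, Fgl2 and Entpd1. The 15 myeloid markers in the table summed to 2.84 to 52.0 CPM in Lag3-deficient islets, 38.6 to 203 CPM in Wt islets, 0.192 to 40.2 CPM in Lag3-deficient NDL and 0.362 to 18.1 CPM in Wt NDL, with S100a8 at 0 in all 12 libraries. The 9 B cell markers in the table summed to 7.91 to 223 CPM in Lag3-deficient islets, 61.7 to 265 CPM in Wt islets, 22.8 to 105 CPM in Lag3-deficient NDL and 29.0 to 110 CPM in Wt NDL, with Pax5 at 0 in all 12 libraries. The CD8 and NK cell markers summed to 70.2 to 443 CPM in Lag3-deficient islets, 220 to 408 CPM in Wt islets, 55.1 to 115 CPM in Lag3-deficient NDL and 21.4 to 29.6 CPM in Wt NDL, mostly as Nkg7. Every other gene of this list, among them Cd8a and Cd8b1, was at most 16.4 CPM in any library.

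The 10 stroma and endothelium markers summed to 27.2 to 187 CPM in Lag3-deficient islets, 5.49 to 32 CPM in Wt islets, 25.7 to 63.2 CPM in Lag3-deficient NDL and 7.32 to 114 CPM in Wt NDL. In NDL this was mostly Pecam1, at 25.2 to 56.4 CPM in Lag3-deficient and 5.87 to 113 CPM in Wt libraries. Every other gene of the list was at most 6.81 CPM in NDL. The libraries of a group were unlike in their marker sums. Lag3-deficient islet 1b had the lowest myeloid and B cell sums of the islet libraries, 2.84 and 7.91 CPM, and the highest stroma and endothelium sum of all 12 libraries, 187 CPM, led by the matrix genes Dcn (76.3 CPM) and Col3a1 (51.5 CPM). It also held 349 CPM of exocrine markers and 380 CPM of CD8 and NK cell markers. Of the latter, Nkg7 alone made up 370 CPM, with Cd8a at 9.99 CPM and Cd8b1, Ncr1, Klrb1c and Eomes at 0. The part of other cells in the tissue differences of Il10, Areg and Fgl2 was not tested. In such libraries of many cells, more cells with a transcript and more transcript per cell cannot be told apart.

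**Figure D3:**
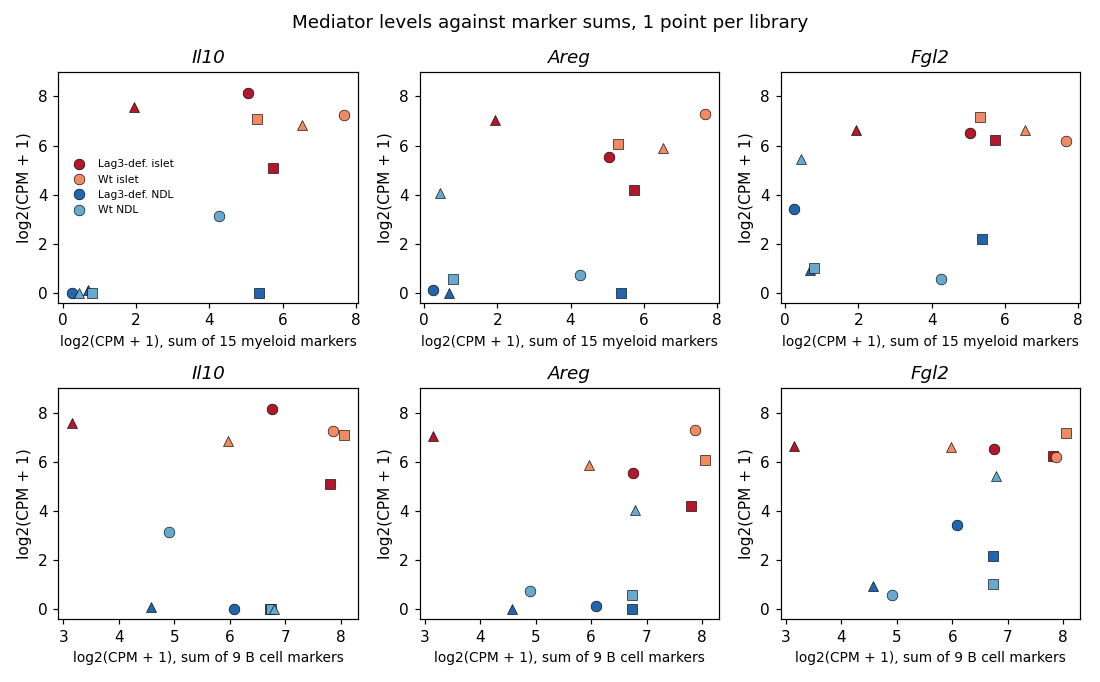
Levels of Il10, Areg and Fgl2 (vertical axes) against the summed level of 15 myeloid markers (upper row) and 9 B cell markers (lower row), all on the scale log2(CPM + 1), with 1 point per library coloured by group. Circles, squares and triangles are libraries 1a, 2 and 1b, and the islet sums run from 2.84 to 203 CPM for myeloid and from 7.91 to 265 CPM for B cell markers.

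To compare the genes with one another, levels were divided by the length of all exons of a gene. The division takes reads to cover all these exons, which was not tested, and the order depends on it. Undivided, Nt5e had the highest mean in Wt islets, 141 CPM against 134 CPM for Il10. In Lag3-deficient islets it had 139 CPM, between Il10 at 169 and Fgl2 at 87.5 CPM. In Lag3-deficient islets the order began with Il10 at 129 ± 96.6 CPM per kb (SD, n = 3), Areg at 52.9 ± 48.1 and Fgl2 at 23.1 ± 3.37, followed by Nt5e at 16.2 ± 2.13 and Lrrc32 at 11 ± 0.763 CPM per kb. In Wt islets the order was the same, with Il10 at 102 ± 14.8, Areg at 76.5 ± 44.0, Fgl2 at 27.5 ± 9.64, Nt5e at 16.4 ± 8.95 and Lrrc32 at 14.4 ± 4.47 CPM per kb. In NDL the highest means were those of Ebi3, Lrrc32 and Nt5e. They stood at 10.4 ± 5.70, 10.1 ± 5.95 and 7.06 ± 2.72 CPM per kb in Lag3-deficient and at 10.8 ± 13.3, 9.76 ± 4.51 and 8.0 ± 3.72 CPM per kb in Wt cells. The place of Ebi3, part of whose exons is shared with an antisense gene, rested on single libraries. Without Wt NDL 1b its mean was 3.27 CPM per kb, below Lrrc32 at 10.9, Nt5e at 10.1 and Entpd1 at 5.20 CPM per kb. Without Lag3-deficient NDL 1a it was 7.56 CPM per kb, below Lrrc32 at 12.1 and Nt5e at 7.60 CPM per kb. In islets Il10, Areg and Fgl2 kept their order whichever library was left out, although Areg had 26 CPM per kb without Lag3-deficient islet 1b. Tgfb1 had at most 0.837 CPM per kb on average in any group. Entpd1 stood below Nt5e on average in all 4 groups, at 4.44 ± 4.22 CPM per kb in Lag3-deficient islets and 4.48 ± 1.21 CPM per kb in Wt islets.

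**Figure D4:**
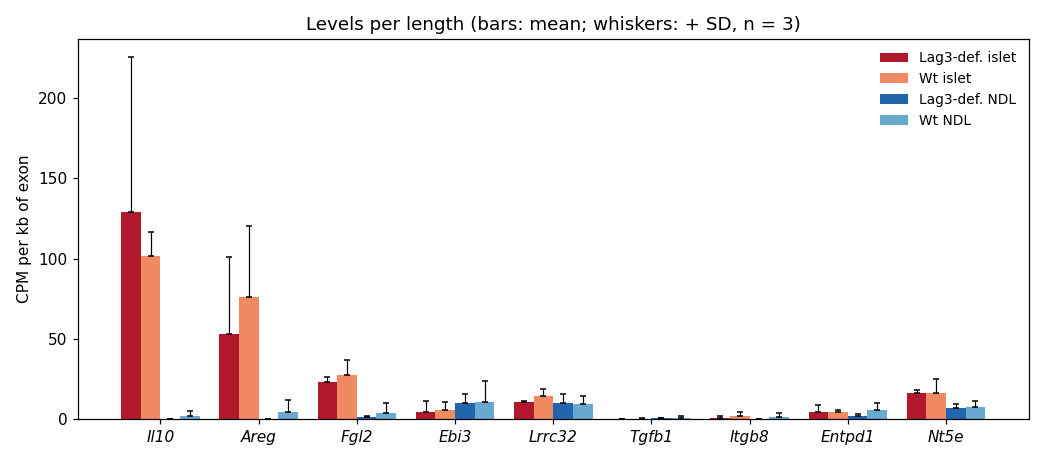
Mean level per kilobase of exon sequence (CPM per kb, linear axis from 0) of the 9 mediator genes in the 4 groups, with whiskers for + 1 SD of 3 libraries. Il10, Areg and Fgl2 have the tallest bars in islets, led by Il10 at 129 and 102 CPM per kb, and Tgfb1 and Itgb8 have the shortest.

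Genes that partner with the mediators were read from 6 lists of 70 genes, of which 69 were in the table and 49 could be tested. The lists too were chosen with earlier results of these data known, so their counts are descriptions. Averaged over genotypes, 6 of the 49 passed between islets and NDL, all higher in islets (0.819% of all genes were called higher). Of them 5 belong to the list of other suppressive and repair molecules, of which 17 of 20 genes were tested. The inhibitory receptor gene Ctla4 stood at 2540 ± 778 CPM in Lag3-deficient and 2300 ± 389 CPM in Wt islets, against 307 ± 88.8 CPM in Lag3-deficient and 472 ± 70.1 CPM in Wt NDL (2.66 ± 0.24, adjusted p = 2.03e-06). Penk, which encodes the precursor of enkephalin peptides, stood at 128 ± 56.8 and 115 ± 135 CPM in Lag3-deficient and Wt islets, against 2.94 ± 3.40 and 11.6 ± 13.9 CPM in Lag3-deficient and Wt NDL (4.32 ± 0.84, adjusted p = 0.0144). Maf, a transcription factor known to drive Il10 in T cells, rose by 1.96 ± 0.41 (adjusted p = 0.02), and Lgals1, for the secreted lectin galectin-1, by 1.15 ± 0.26 (adjusted p = 0.0364). The fifth was the receptor gene Tigit (3.93 ± 0.91, adjusted p = 0.0428), named after its values were seen. The sixth was Cd38 of the adenosine list, an ectoenzyme that breaks down NAD, at 28.2 ± 37.4 CPM in Lag3-deficient and 75.4 ± 27.8 CPM in Wt islets, against 1.17 ± 1.14 CPM in Lag3-deficient and 0.751 ± 0.894 CPM in Wt NDL (4.18 ± 0.94, adjusted p = 0.0364).

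In the adenosine list 8 of 12 genes were tested and Cd38 was the 1 called, beside 0.819% of all genes called higher. The remaining 4 lists held 0 called genes in that comparison with limma. Over all genes tested, 11.3% had an unadjusted p under 0.05 there. In these lists 1 or 0 genes each had an unadjusted p under 0.05, which does not stand out from that share. Of the 7 genes for the IL-10 receptor and its response, 7 were tested and 1 had an unadjusted p under 0.05. That was Stat3, the main signal transducer of the receptor (1.18 ± 0.50, adjusted p = 0.366). Socs3, a feedback inhibitor induced by STAT3, differed by 1.17 ± 0.76 and the receptor chain Il10rb by -0.65 ± 0.64. For Socs3 the value was 2.30 ± 1.07 in Lag3-deficient and 0.04 ± 1.07 in Wt cells, neither called. Of 16 genes for storage, release and sensing of TGF-beta, 11 were tested and 1 had an unadjusted p under 0.05. Ski, a repressor of SMAD signalling, was lower in islets, at 39.4 ± 42.0 CPM in Lag3-deficient and 62.4 ± 24.3 CPM in Wt cells, against 178 ± 29.1 CPM in Lag3-deficient and 177 ± 18.1 CPM in Wt NDL (-2.26 ± 0.56, adjusted p = 0.0575). The receptor gene Tgfbr1 differed by -1.13 ± 0.60 and Itgav, whose product pairs with integrin beta 8, by 0.63 ± 0.51. For Itgav the value was 2.09 ± 0.71 in Lag3-deficient and -0.82 ± 0.71 in Wt cells, neither called. Of 10 genes for other EGF receptor ligands, their sheddases and the receptor, 4 were tested and 0 had an unadjusted p under 0.05. The sheddase gene Adam17 differed by -0.27 ± 0.53. The ligand genes Egf, Tgfa, Ereg, Btc and Epgn fell under the filter, with at most 4 CPM in any library, and Hbegf differed by 0.00 ± 0.87. Of 5 genes for IL-35 and IL-27 partners and receptors, 2 were tested. The receptor chain genes Il6st (0.58 ± 0.50) and Il27ra (-0.03 ± 0.34) did not pass. For Il6st the value was 1.57 ± 0.71 in Lag3-deficient and -0.42 ± 0.71 in Wt cells, neither called.

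Genes with the most similar course over the 12 libraries were found by the root mean square difference of log2(CPM + 1) after centring each gene, among 5424 well expressed genes. For Il10 the closest was Fos, an immediate early gene, at 1.24 log2 units, followed by Gfi1, a transcriptional repressor gene, at 1.61. Areg lay closest to Fgl2, at 1.15, and then to Rgs2, a regulator of G protein signalling, at 1.21. Fgl2 lay closest to Penk, at 0.962, and then to Rgs2, at 1.16. Against their own SD over the libraries of 3.55 log2 units for Il10, 2.96 for Areg and 2.59 for Fgl2, these distances were small. Nt5e lay closest to Gapdh, at 0.358, and to the activation marker gene Cd69, at 0.362, with an own SD of 0.799. Lrrc32 lay closest to Psma2 (0.280) and Hnrnpa3 (0.314), Entpd1 to Timm13 (0.569) and Glrx (0.617), and Tgfb1 to Add1 (0.636) and Nucb1 (0.646). Ebi3 lay closest to Tmod3 (0.782) and Gfer (0.841), and Itgb8 to Dpp8 (1.49) and Wsb1 (1.68). All of these distances are descriptions over libraries that share the split between tissues.

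The tissue differences of the 3 called members were computed again under 22 other settings or subsets of libraries. Il10 and Areg were called in 22 of 22, and Fgl2 in 20 of 22. Their fold changes were above 0 in each.

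**Figure D5:**
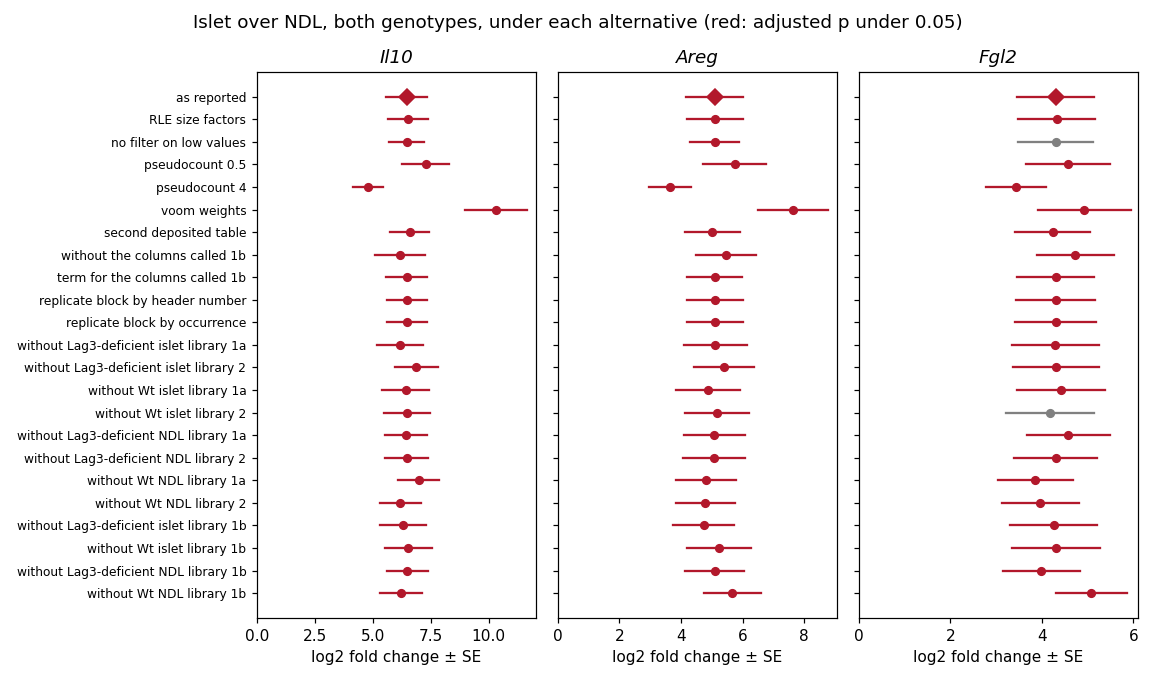
Log2 fold change (± SE) of islets over NDL, averaged over genotypes, for Il10, Areg and Fgl2 as reported (diamonds) and under 22 alternatives (circles), in red where the adjusted p is under 0.05. Il10 runs from 4.78 to 10.31, and Fgl2 misses the threshold without a filter on low values and without Wt islet library 2.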

How the data were processed

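RNA of Tregs was measured in 12 libraries, in 4 groups of 3. The first deposited table holds 23361 genes as a signal of whole numbers with nearly equal totals. From these values, and not from any stated step, it was taken to hold counts rescaled and rounded before they were deposited. The second table holds 10317 of these genes as a deposited signal with almost equal quantiles in all columns, and it served as an alternative. TopHat2, DESeq2 and mm10 are named in the submitters' processing notes, without roles or versions. Header numbers do not tell the columns numbered 1 apart, so columns were assigned to groups only. From these values CPM were computed with TMM scaling (trimming 30% of ratios and 5% of levels), and log2(CPM + 1) was fitted with limma 3.58.1 in R 4.3.3, with a mean-variance trend, 4 group terms and 8 residual degrees of freedom. For low genes the pseudocount of 1 makes fold changes too small. Benjamini-Hochberg adjustment of p-values ran over 10868 genes in each of 6 comparisons, with a threshold of 0.05. The members and gene lists were chosen with earlier results of these data known. Up to 4 genes per pathway list with the smallest p between tissues, and the 2 closest profiles of each member, are named. Positions and exon lengths come from GENCODE M21 (GRCm38). Alternatives covered scaling, filter, pseudocount, weights, input table, the columns called 1b, replicate blocks and leaving out each library.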

Additional observations from a re-analysis of the deposited data

How the results depend on the processing

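Of the 9 members, 2 to 3 were called between islets and NDL, averaged over genotypes, under each of 22 alternatives. Il10 and Areg were called in 22 of 22. Fgl2 was called in 20 of 22, and not without a filter on low values (adjusted p = 0.0662) or without Wt islet 2 (adjusted p = 0.0551). In Lag3-deficient cells the count of 1 member became 0 without a filter on low values, 2 with voom weights and 0 without the columns called 1b, and ran from 0 to 1 when single libraries were left out. In Wt cells the count of 0 became 1 with RLE size factors, with a pseudocount of 4, with voom weights and with the second table, and ran from 0 to 1 when single libraries were left out. In each case of 1 the member was Il10. Over all genes, 100 were called in the averaged comparison, 40 without a filter, 151 with voom weights and 45 without the columns called 1b. The corresponding counts were 13 in Lag3-deficient cells (7 to 32 over the alternatives) and 20 in Wt cells (8 to 54). Between genotypes in islets 0 genes were called, and 16 without Lag3-deficient islet 1b. The causes were not tested.

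Of the log2 fold changes below, none was called. Between genotypes in islets, Il10 turned to 0.11 with RLE size factors and 0.13 with the second table, Fgl2 to 0.03 with RLE size factors and Ebi3 to 0.31 with the second table. Between genotypes in NDL, Fgl2 turned to 0.25 with voom weights and 2.06 without the columns called 1b. Between tissues, Entpd1 changed sign most often. In Lag3-deficient cells it was -0.09 with a pseudocount of 0.5, -0.63 with voom weights and -1.04 without 1b. In Wt cells it was -0.01 with RLE size factors, -0.01 with a pseudocount of 4 and -0.09 with the second table. Averaged, it was -0.01 with a pseudocount of 0.5, -0.24 with voom weights and -0.42 without 1b. In Wt cells Tgfb1 was -0.13 with a pseudocount of 4 and -0.89 without 1b, and Ebi3 was 1.44 without 1b. For the difference of genotype effects, Fgl2 was 0.23 with RLE size factors, 0.16 with a pseudocount of 4 and 0.09 with the second table. Entpd1 was 0.09, 0.34 and 0.32 under the same 3 settings, Itgb8 was 0.08 with a pseudocount of 4, and Areg was -1.07 and Lrrc32 0.45 without 1b.

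Leaving out single libraries turned the sign of further uncalled values. Between genotypes in islets the ranges were -1.60 to 0.35 for Ebi3, -2.02 to 0.52 for Entpd1, -0.44 to 0.06 for Fgl2, -0.73 to 0.80 for Il10, -0.26 to 0.52 for Nt5e and -0.84 to 0.03 for Tgfb1. Between genotypes in NDL they were -0.37 to 1.62 for Ebi3, -1.07 to 1.38 for Fgl2, -1.54 to 0.04 for Il10, -2.84 to 0.01 for Itgb8, -0.46 to 0.33 for Lrrc32, -0.58 to 0.16 for Nt5e and -0.23 to 1.58 for Tgfb1. Between tissues in Lag3-deficient cells they were -0.93 to 1.55 for Entpd1, -0.01 to 2.23 for Itgb8 and -0.02 to 0.71 for Lrrc32. In Wt cells they were -1.62 to 0.44 for Ebi3, -0.87 to 0.59 for Entpd1 and -0.45 to 1.35 for Tgfb1, and averaged they were -0.43 to 0.80 for Entpd1 and -0.60 to 0.33 for Tgfb1. For the difference of genotype effects they were -0.20 to 1.60 for Areg, -1.0 to 1.51 for Entpd1, -1.58 to 0.94 for Fgl2, -0.09 to 1.8 for Il10, -1.99 to 1.02 for Itgb8, -0.67 to 0.12 for Lrrc32 and -0.15 to 0.69 for Nt5e.

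Columns with the same header label in different groups deviated together only weakly, with correlations of -0.0857 to 0.157. Between the genotypes in NDL they were 0.157 for 1a and 0.121 for 1b, against at most -0.0188 and -0.00492 with another label. For 2 the value was 0.024, against 0.0515. Between Wt islets and Wt NDL each label exceeded the others, and between Lag3-deficient islets and NDL each fell short. Since the labels did not go together throughout, the numbers were not taken to pair samples. With a replicate block by header number or by order of occurrence, 92 and 90 genes were called in the averaged comparison, 3 members under each, and no count of members moved in any comparison. In Wt cells the block by occurrence gave 11 genes between tissues. The unknown depth of the rescaled counts limits what a value near 0 can show.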

Other observations

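Among the 49 partner genes tested, 0 were called by limma between genotypes in either tissue. An unadjusted p under 0.05 was found for 2 in islets, beside 5.74% of all genes. In NDL it was found for 1, beside 2.72% of all genes. These counts do not stand out from those shares, and the genes are named as a description. In islets Tgfbr1, for a receptor of TGF-beta, stood at 71.0 ± 102 CPM in Lag3-deficient and 147 ± 54.2 CPM in Wt cells (SD, n = 3 each), with a log2 fold change of -2.21 ± 0.85 (limma, adjusted p = 0.85). Slc29a1, for a nucleoside transporter that takes up adenosine, stood at 23.3 ± 38.6 CPM in Lag3-deficient and 60.9 ± 25 CPM in Wt cells of the islets (-3.24 ± 1.17, adjusted p = 0.85). In NDL Itgav, for integrin alpha V, stood at 32.2 ± 22.0 CPM in Lag3-deficient and 96.1 ± 50.7 CPM in Wt cells (-1.61 ± 0.71, adjusted p = 1). Itgav went the other way in islets, at 123 ± 28.7 CPM in Lag3-deficient and 56.5 ± 32.2 CPM in Wt cells (1.3 ± 0.71, adjusted p = 0.92). The difference of these genotype effects, islets minus NDL, was 2.91 ± 1.01 and was not called.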
